A study of Mus musculus with 3 samples.

Results

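The mitosis genes are 55 genes whose products drive and carry out cell division in mouse cells, taken as a list of gene symbols. All 55 had at least 1 probe, among 19751 genes with a probe on the array, and they lie on 17 chromosomes. They were followed in Th2, Th9 and induced regulatory T cell (iTreg) cultures, each set against naive CD4 T cells on 1 Agilent 2-colour array. The culture RNA was in the Cy5 channel and the naive RNA in the Cy3 channel of all 3 arrays, with no dye swap. Splenic naive CD4 T cells of C57BL/6 mice, 6 to 8 weeks old and with no genotype given beyond the strain, were enriched by magnetic sorting. All 3 cultures then received 3 days of plate-bound anti-CD3e and soluble anti-CD28, at 10 µg/ml each. Th2 cells had IL-4 at 5 ng/ml, IL-2 at 1 ng/ml and anti-IFN-γ at 2 µg/ml. Th9 cells had TGF-β1 at 2 ng/ml, IL-4 at 1 ng/ml, IL-2 at 0.2 ng/ml and anti-IFN-γ at 5 µg/ml. The iTreg cells had TGF-β1 at 5 ng/ml and IL-2 at 0.4 ng/ml, with anti-IFN-γ and anti-IL-4 at 5 µg/ml each. The media therefore differed in IL-2 as well as in the polarising cytokines. A culture stimulated without polarising cytokines was not analysed here, so stimulation and medium cannot be told apart in a ratio to naive cells.

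Naive T cells rest outside the cell cycle, and signals through the T cell receptor and CD28 bring them into it. A dividing cell makes most of its mitotic transcripts in G2, after DNA has been copied, when cyclin A and cyclin B bind Cdk1 and mitosis begins. Kinetochores then attach chromosomes to the spindle, the checkpoint waits for all of them, and the anaphase-promoting complex releases the sister chromatids by destroying securin and cyclin B. Many of these genes carry in their promoters a CCAAT box, bound by NF-Y, and a cell cycle genes homology region (CHR), bound by the DREAM complex in resting cells and by MuvB with B-Myb or FOXM1 in cycling cells.

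Lineage genes were read as a check of the labels. All 7 T cell markers with a probe, Cd3e and Cd4 among them, were well above background in every channel. Il4, the Th2 cytokine, had a log2 ratio to naive of 5.08 in Th2 cells and 1.04 in Th9 cells, and was not well above background in iTreg cells. Il9 stood at 6.52 in Th9 cells and was at least 2.64 above naive in Th2 cells. Foxp3, the regulatory T cell factor, stood at -0.68 in Th2 cells, 1.28 in Th9 cells and 3.49 in iTreg cells. Ctla4, which regulatory T cells express, was highest in Th9 cells (3.28, 4.18 and 3.52 in Th2, Th9 and iTreg), and Ccr7, a naive cell receptor, was higher in iTreg than in naive cells (-0.66, -0.22 and 0.85, and 0.94, 1.14 and 1.39 with median centring, which turns the first 2). Of the 6 B cell markers used that had a probe, Cd79a, Ms4a1 and Pax5 were not well above background in any channel. The B cell list, with 2 markers above background in each culture and 3 in naive cells, summed to normalised signals of 2813, 2771 and 2708 in the Th2, Th9 and iTreg channels, most of it Cd79b, and to 1244 to 1283 in the naive ones. The NK and CD8 cell list, with 6 of 9 markers above background in each culture and 8 in naive cells, summed to 14290, 10640 and 16530, against 77760 to 82490 in naive cells. Gzma made most of the naive sums (58800 to 65040) and had a log2 ratio of -6.48 in iTreg cells. Ctsw, at 1.33 there, was the largest part of the iTreg sum (8135). The myeloid list, with 4, 5 and 5 of 8 above background in the cultures and 6 to 8 in naive cells, summed to 9173, 9030 and 18860, against 23850 to 26280. Most of it was Itgam, at 7351, 7003 and 16750 in the cultures and 15850 to 18490 in naive cells. The erythroid list, with 1 of 4 above background in every channel, summed to 427.3 to 445.6 in the cultures, against 1315 to 1454. Each sum follows its brightest probes and is no measure of cell numbers. The part of these other cells in the values of the mitosis genes was not tested. Of 43020 gene spots on each array, the culture channel had 48.9% to 51% and the naive channel 53% to 54.1% well above background, and no spot was saturated.

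Mitosis genes were far higher in all 3 cultures than in naive cells, and clearly less so in iTreg cells than in the other two. A gene counts as measured when its probe was well above background in both channels of the arrays compared, and 49 of the 55 were measured on all 3 arrays. Of the 49 measured on the Th2 array, 46 were at least 2-fold higher in Th2 cells, where 14.8% of all measured genes were. Th9 cells had 47 of 50 at least 2-fold higher, against 15.5% of all measured genes. In iTreg cells the count was 38 of 49, against 10.2% of all measured genes. No measured member was 2-fold lower in any culture, although 14.5%, 15.6% and 8.14% of all measured genes were in Th2, Th9 and iTreg cells. The median log2 ratio of the members was 3.02 in Th2 cells, 3.16 in Th9 cells and 1.61 in iTreg cells, while the median of all measured genes was -0.02, -0.01 and -0.02. On all 3 arrays together, 38 of 49 members (77.6%) were at least 2-fold higher, against 7.29% of all genes measured there.

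These ratios come from loess normalisation within each array, which centres all genes near 0. With median centring, the median of all genes sat at 0.33, 0.16 and -0.18 in Th2, Th9 and iTreg cells, and that of the members at 3.43, 3.41 and 1.37. Relative to all genes the members then stood 3.10, 3.25 and 1.55 higher, close to the 3.04, 3.17 and 1.62 under loess. The counts under median centring were 46, 47 and 33, against backgrounds of 25.4%, 21.5% and 8.17%. The 5 members then under 2-fold in iTreg cells were Mad2l1 (0.96), Espl1 (0.97), Spc25 (0.77), Kif4 (0.86) and Ncapd2 (0.98). With 1 array a group there is no spread between replicates and no test across genes. The ± below is the scanner software's error of 1 spot value (n = 1 array), between 0.20 and 0.53 for the members' log2 ratios. The software gives this error for its own log ratio, and here it is set beside the loess ratio. A value within or beyond the error is therefore a guide only. Each array measures RNA of a whole culture, so fewer dividing cells and less transcript per dividing cell cannot be told apart.

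**Figure D1:**
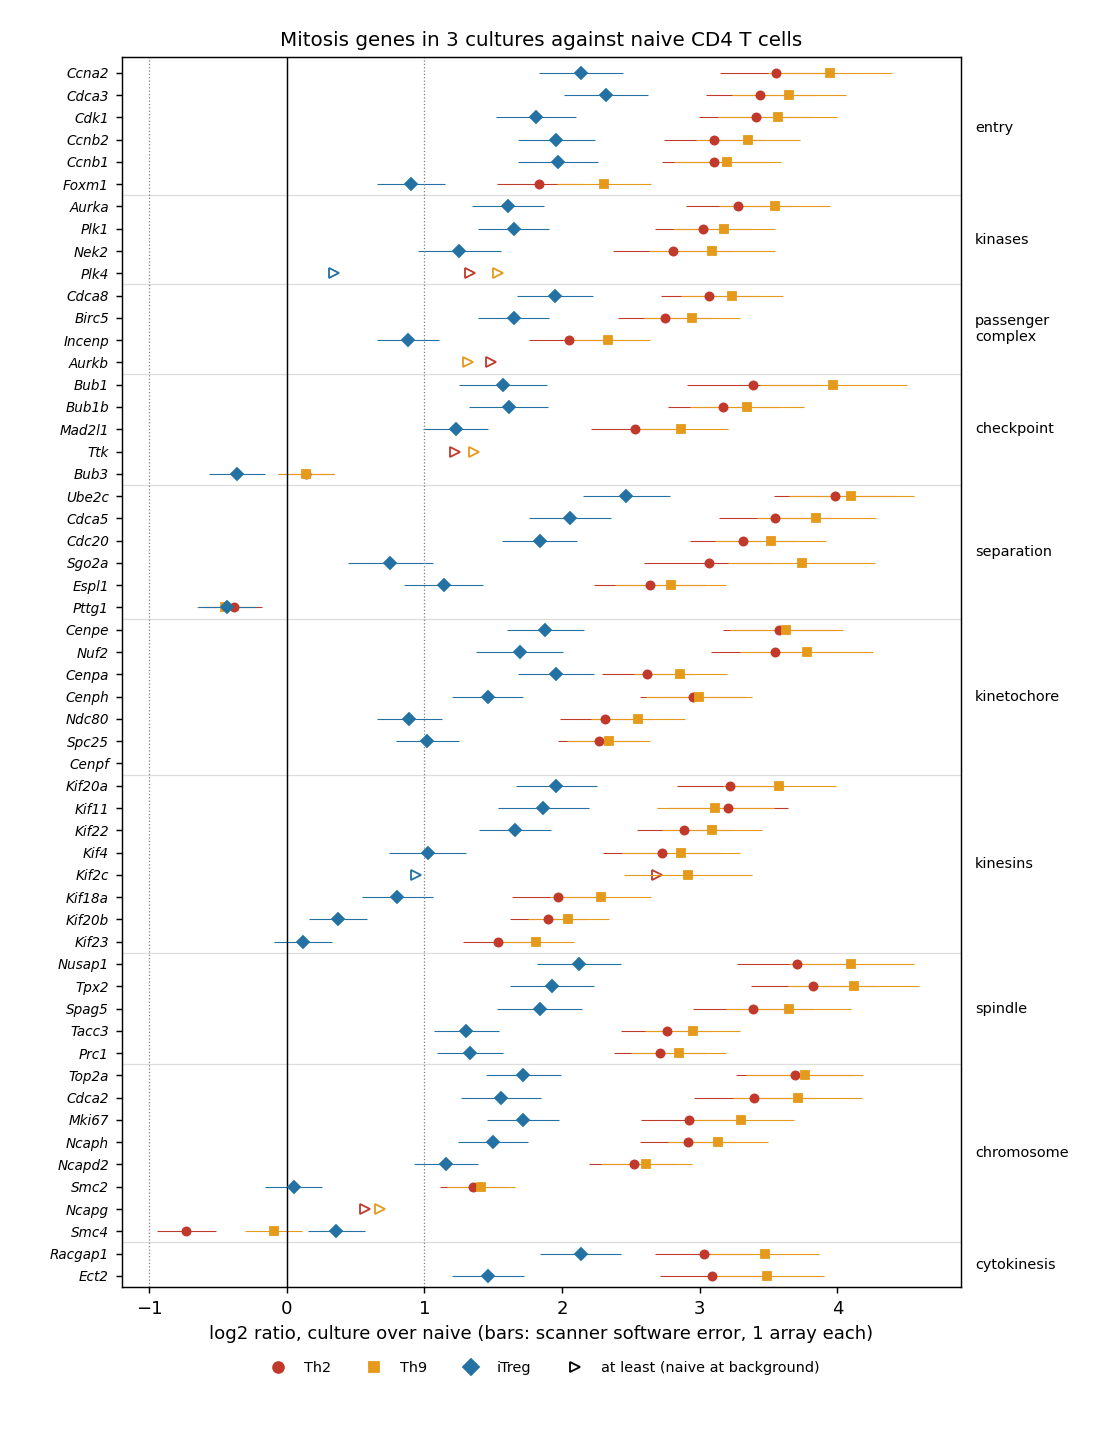
Log2 ratio of each of the 55 mitosis genes, culture over naive, for Th2 (circles), Th9 (squares) and iTreg (diamonds), by role. Bars are the scanner software error of 1 array each, open triangles are lower bounds for the probe used where its naive channel was at background (a second Kif2c probe gave 2.21 and 0.91 in Th2 and iTreg), Cenpf has no value, and dotted lines mark 2-fold. The quartiles of the members lie at 2.53 and 3.39 in Th2, 2.80 and 3.62 in Th9 and 1.02 and 1.88 in iTreg cells, and Bub3, Pttg1 and Smc4 sit near 0.

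The promoters of the members were searched for the letters of the elements named above, since so many members lay on the same side of naive cells. RefSeq promoters (build GRCm38.p6, 250 bases before to 50 bases after the start) were listed for 47 of the 55 members, by symbol, and for 27025 genes in all. CHR letters (TTTGAA or TTCGAA, either strand) occurred in 33 of the 47 (70.2%), against 19.4% of all promoters and 14.1% of those of other measured genes. CCAAT letters, on either strand, occurred in 34 of 47 (72.3%), against 37.9% of all and 39.2% of other measured genes. Both occurred together in 29 of 47 (61.7%), against 7.7% of all and 5.91% of other measured genes. Within 50 bases either side of the start, CHR letters were found in 30 of 47 member promoters (63.8%) and in 5.49% of all promoters. CCAAT letters lay in the 100 bases before the start in 28 of 47 (59.6%), against 20.1% of all. E2F letters (TTCCCGC or TTGGCGC or TTCGCGC, either strand), the element of many S phase genes, occurred in 12 of 47 (25.5%), against 8.21% of all and 15.1% of other measured genes. The reverse complement of TTGGCGC ends in CCAA, so E2F and CCAAT matches can share bases, as can CCAAT matches on opposite strands. A match of letters describes the sequence and is no measure of binding.

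The 6 promoters below belong to the 3 members with the highest and the 3 with the lowest mean log2 ratio over the 3 arrays, among members measured on all of them and present in the promoter table outside the chromosomes not shown here. They are given to show the letters in place, 5′ to 3′ on the strand of the gene, with CHR and CCAAT letters in capitals and all other bases in lower case. Ube2c, Nusap1 and Cdca5 are the high ones.
Ube2c, chr2:164769679-164769978, strand +: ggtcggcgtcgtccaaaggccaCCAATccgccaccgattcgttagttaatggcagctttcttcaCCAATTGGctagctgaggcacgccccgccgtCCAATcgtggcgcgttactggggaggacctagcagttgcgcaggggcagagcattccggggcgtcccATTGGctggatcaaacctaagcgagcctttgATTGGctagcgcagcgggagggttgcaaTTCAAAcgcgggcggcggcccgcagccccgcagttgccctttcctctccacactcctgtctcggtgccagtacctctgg
Nusap1, chr2:119618048-119618347, strand +: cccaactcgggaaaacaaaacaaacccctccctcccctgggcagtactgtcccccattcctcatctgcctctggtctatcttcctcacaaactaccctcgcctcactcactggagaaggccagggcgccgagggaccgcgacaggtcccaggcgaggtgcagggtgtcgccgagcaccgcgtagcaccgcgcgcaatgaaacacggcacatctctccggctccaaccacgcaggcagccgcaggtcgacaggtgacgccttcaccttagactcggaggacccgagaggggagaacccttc
Cdca5, chr19:6084847-6085146, strand +: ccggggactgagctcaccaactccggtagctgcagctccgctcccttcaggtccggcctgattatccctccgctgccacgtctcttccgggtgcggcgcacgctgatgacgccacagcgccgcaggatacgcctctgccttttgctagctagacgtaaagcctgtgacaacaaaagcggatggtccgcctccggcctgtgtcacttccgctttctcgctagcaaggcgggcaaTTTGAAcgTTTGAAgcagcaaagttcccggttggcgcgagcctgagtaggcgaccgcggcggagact

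Smc2, Bub3 and Pttg1 are the low ones, Bub3 having 2 starts in the table, of which the first is shown.
Smc2, chr4:52438971-52439270, strand +: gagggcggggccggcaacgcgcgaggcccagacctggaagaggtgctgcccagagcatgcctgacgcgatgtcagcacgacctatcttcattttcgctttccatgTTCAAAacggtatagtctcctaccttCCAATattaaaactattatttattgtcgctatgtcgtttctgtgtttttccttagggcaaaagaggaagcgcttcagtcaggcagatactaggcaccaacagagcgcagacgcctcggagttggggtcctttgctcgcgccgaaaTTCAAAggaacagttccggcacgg
Bub3, chr7:131560120-131560419, strand +: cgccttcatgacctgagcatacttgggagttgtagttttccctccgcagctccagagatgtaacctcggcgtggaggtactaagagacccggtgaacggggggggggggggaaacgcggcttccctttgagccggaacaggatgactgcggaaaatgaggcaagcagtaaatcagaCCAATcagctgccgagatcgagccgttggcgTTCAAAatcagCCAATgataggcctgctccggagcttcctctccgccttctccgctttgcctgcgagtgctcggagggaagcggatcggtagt
Pttg1, chr11:43425932-43426231, strand -: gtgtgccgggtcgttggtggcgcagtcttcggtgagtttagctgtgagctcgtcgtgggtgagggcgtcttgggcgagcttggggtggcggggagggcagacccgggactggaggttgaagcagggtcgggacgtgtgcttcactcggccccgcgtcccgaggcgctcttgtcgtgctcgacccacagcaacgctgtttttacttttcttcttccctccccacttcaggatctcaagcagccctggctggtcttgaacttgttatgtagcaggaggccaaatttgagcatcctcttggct

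The Ube2c promoter held 6 CCAAT matches, 2 of them overlapping on opposite strands, and 1 CHR match that begins at position -26 from the start. Cdca5 held 2 CHR matches side by side, at -14 and -6, and no CCAAT. Nusap1, with the same log2 ratio as Ube2c in Th9 cells (4.10), held neither in this window. Among the low genes Smc2 held 2 CHR matches, at -142 and 29, and 1 CCAAT, Bub3 held 1 CHR match at -40 between 2 CCAAT matches, and Pttg1 held neither. The letters thus occurred in promoters at both ends of the range. Over the members with values, the 29 with CHR letters had median log2 ratios of 3.03 in Th2, 3.24 in Th9 and 1.65 in iTreg cells, and the 13 without had 2.91, 3.09 and 1.46. The 31 with CCAAT letters had 3.07, 3.24 and 1.65, and the 11 without had 2.75, 2.94 and 1.31. Whether these medians differ was not tested.

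**Figure D2:**
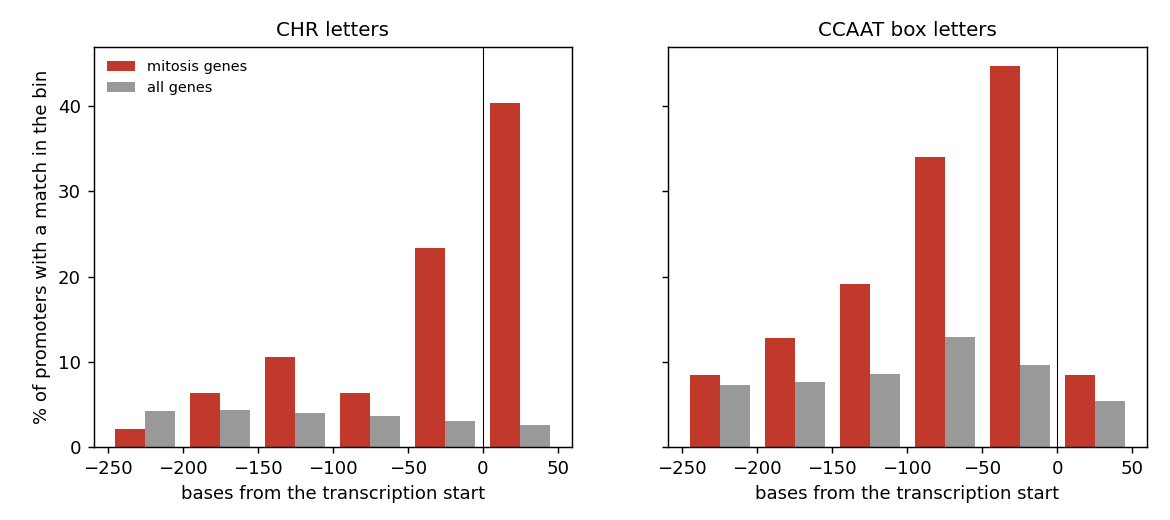
Share of promoters (y axis, %) with a match in each 50-base bin of distance from the transcription start (x axis, bases), for CHR letters on the left and CCAAT letters on the right, in mitosis genes (47 promoters) and all genes (27025 promoters). In members CHR letters peak in the first 50 bases after the start (40.4%, against 2.55% of all promoters, their lowest bin) and CCAAT letters in the 50 bases before it (44.7%, against 9.64% of all promoters, whose peak of 12.9% lies 1 bin upstream).

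Entry into mitosis is driven by Cdk1 with its cyclins. At least 2-fold higher than in naive cells were all 6 genes of this group in the Th2 culture, all 6 in the Th9 culture and 5 of 6 in the iTreg culture. Ccna2, which encodes cyclin A2, had a normalised signal of 4867 in Th2, 6603 in Th9 and 1559 in iTreg cells, against 414.1, 428.2 and 355.1 in the naive channels of the same arrays. Its log2 ratios were 3.56 ± 0.41 in Th2, 3.95 ± 0.45 in Th9 and 2.14 ± 0.31 in iTreg cells. All 3 cultures were thus above naive cells, and the iTreg culture stood apart below the other two. Cdca3, which helps degrade the Cdk1 inhibitor Wee1, had signals of 11290, 12990 and 3882 in Th2, Th9 and iTreg cells, against 1041, 1036 and 778.6 in naive cells. That gave log2 ratios of 3.44 ± 0.40, 3.65 ± 0.41 and 2.32 ± 0.31, the last being the second highest iTreg ratio of any member, after Ube2c. Cdk1 itself, and the cyclin B genes Ccnb1 and Ccnb2, had log2 ratios of 3.10 to 3.41 in Th2, 3.20 to 3.57 in Th9 and 1.81 to 1.97 in iTreg cells. Other probes of Ccnb1 gave 1.18 and 1.23 in iTreg cells, below the 1.97 of the brightest probe.

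Foxm1, the transcription factor of G2 and mitotic genes, was the lowest of this group. Its signals were 648.9 in Th2, 848.6 in Th9 and 317.4 in iTreg cells, against 181.9, 171.9 and 169.8 in naive cells. The log2 ratios were 1.84 ± 0.31, 2.30 ± 0.34 and 0.90 ± 0.25, so that iTreg cells were above naive cells by more than the error but under 2-fold.

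The mitotic kinases Aurka, Plk1 and Nek2 were each at least 2-fold higher in every culture. Aurka, the Aurora kinase of centrosomes and spindle poles, had signals of 6500, 8385 and 1663 in Th2, Th9 and iTreg cells, against 669.2, 718.8 and 546.2 in naive cells. Its log2 ratios were 3.28 ± 0.38, 3.54 ± 0.41 and 1.61 ± 0.26. Plk1, the Polo kinase that acts at centrosomes, kinetochores and the central spindle, had signals of 6843, 7974 and 2281, against 841, 882 and 728.5. Both kinases showed the same order of channels, Th9 and Th2 at the top, iTreg between them and naive cells. Plk1 reached 3.02 ± 0.35, 3.18 ± 0.37 and 1.65 ± 0.26, and Nek2, which splits the centrosomes, 2.81, 3.09 and 1.25. Plk4, the kinase of centriole duplication, was at background in naive cells on all 3 arrays and above it in each culture, so only bounds can be given. It was at least 2.51-fold higher in Th2, 2.90-fold higher in Th9 and 1.27-fold higher in iTreg cells.

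The chromosomal passenger complex consists of Aurora B, survivin, borealin and INCENP. Cdca8, which encodes borealin, had signals of 11250, 12710 and 4325 in Th2, Th9 and iTreg cells, against 1339, 1349 and 1119 in naive cells, with log2 ratios of 3.07 ± 0.35, 3.24 ± 0.37 and 1.95 ± 0.28. Birc5, which encodes survivin, had signals of 20950, 22960 and 9257, against 3125, 2988 and 2953, with log2 ratios of 2.75 ± 0.34, 2.94 ± 0.35 and 1.65 ± 0.26. In both genes every culture was above every naive channel. Incenp, the scaffold, gave 15680, 18510 and 6332 in the cultures and 3790, 3677 and 3438 in naive cells. Its log2 ratios of 2.05 ± 0.29, 2.33 ± 0.31 and 0.88 ± 0.22 were the lowest of the 3, and its iTreg value fell short of 2-fold. The naive channels held Aurkb, the kinase itself, at background, which puts Th2 cells at least 2.79-fold higher and Th9 cells at least 2.49-fold higher. In iTreg cells Aurkb was not well above background.

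Of the 4 measured checkpoint genes, 3 were at least 2-fold higher in every culture with loess, and Bub3 was not in any. Bub1, a kinetochore kinase of the checkpoint, had signals of 1374, 1929 and 383.9 in Th2, Th9 and iTreg cells, against 131.1, 123.2 and 129.4 in naive cells. Its log2 ratio was 3.39 ± 0.48 in Th2, 3.97 ± 0.53 in Th9 and 1.57 ± 0.32 in iTreg cells. Bub1b, part of the inhibitor of the anaphase-promoting complex, had signals of 1926, 2174 and 565.4, against 214.4, 214.5 and 185. Its log2 ratios, 3.17 ± 0.40, 3.34 ± 0.41 and 1.61 ± 0.29, followed the same order. Bub3, the adaptor that brings both to the kinetochore, was different. It gave 8242, 8320 and 5505 in the cultures and 7491, 7547 and 7070 in naive cells. Its log2 ratios were 0.14 ± 0.21 in Th2 and 0.14 ± 0.21 in Th9, within the error of no difference, and -0.36 ± 0.21 in iTreg cells. With median centring Bub3 was at 0.93, 0.70 and -0.45.

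Mad2l1, the Mad2 protein that holds back Cdc20, had log2 ratios of 2.53, 2.86 and 1.23 by its brightest probe. A second, dimmer Mad2l1 probe gave 0.45, 0.66 and -0.13, so the Mad2l1 probes disagree by more than 2-fold. A further dim probe gave 0.15 in Th2 and 0.43 in Th9 cells. Of the 9 members with several probes measured on all 3 arrays, the other 8 agreed within 1 log2 unit, while Tpx2, whose second probe was measured on 1 array only, is not among them. Ttk, the checkpoint kinase Mps1, was not well above background in naive or iTreg cells. Its signal was at least 2.34-fold higher in Th2 cells and at least 2.57-fold higher in Th9 cells.

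Chromatid separation held the members with the highest and the lowest mean ratio over the 3 arrays, Ube2c and Pttg1. Ube2c, the ubiquitin-conjugating enzyme that works with the anaphase-promoting complex, had signals of 11960 in Th2, 13790 in Th9 and 3452 in iTreg cells, against 757.3, 803.4 and 625.3 in naive cells. Its log2 ratios of 3.98 ± 0.45 in Th2, 4.10 ± 0.45 in Th9 and 2.47 ± 0.32 in iTreg cells correspond to 15.8-fold, 17.2-fold and 5.52-fold. Its promoter is the first printed above. Cdca5, or sororin, which guards cohesin until anaphase, had signals of 5733, 6988 and 1814, against 490.3, 485.6 and 435.8, and log2 ratios of 3.55 ± 0.41, 3.85 ± 0.43 and 2.06 ± 0.30. Cdc20, the activator that the checkpoint inhibits, reached 3.31, 3.51 and 1.84, and Espl1, the protease separase that cuts cohesin, 2.64, 2.79 and 1.14.

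Pttg1 encodes securin, the inhibitor of separase. It had signals of 5993, 5883 and 5455 in Th2, Th9 and iTreg cells, against 7825, 8020 and 7362 in naive cells, so every culture was below every naive channel. Its log2 ratios were -0.39 ± 0.21, -0.45 ± 0.21 and -0.43 ± 0.21, nearly the same in the 3 cultures. Under median centring they were 0.36, 0.06 and -0.52, so the direction in Th2 and Th9 cells depends on the scaling. Its partner Espl1 was at least 2-fold higher in all 3 cultures with loess, and in Th2 and Th9 cells with median centring. Sgo2a, a shugoshin that protects centromeric cohesin, had signals of 1097, 1477 and 198.9 in the cultures, against 130.8, 110.6 and 118 in naive cells. The log2 ratios were 3.07 ± 0.47 in Th2, 3.74 ± 0.53 in Th9 and 0.75 ± 0.31 in iTreg cells.

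Of 7 kinetochore genes, 6 were measured, and all 6 were at least 2-fold higher in Th2 and Th9 cells. Cenpe, a motor that carries chromosomes along microtubules, had signals of 7866, 7788 and 2460 in Th2, Th9 and iTreg cells, against 658.3, 630.2 and 669.7 in naive cells, with log2 ratios of 3.58 ± 0.41, 3.63 ± 0.41 and 1.88 ± 0.28. Nuf2, a subunit of the NDC80 complex that grips microtubules, had signals of 1953, 2144 and 488.6, against 167, 156.5 and 151.3, with log2 ratios of 3.55 ± 0.47, 3.78 ± 0.48 and 1.69 ± 0.32. The subunits of that complex kept the same order of cultures but not the same size of ratio. Ndc80 gave 1253, 1385 and 442.9 in the cultures, against 251.8, 236.4 and 239 in naive cells, and log2 ratios of 2.31 ± 0.33, 2.55 ± 0.34 and 0.89 ± 0.24. Spc25 was at 2.27, 2.34 and 1.02. Cenpa, the histone variant that marks centromeres, was at 2.61, 2.86 and 1.96, and Cenph, of the inner kinetochore, at 2.95, 3.00 and 1.46. Cenpf was not well above background in any of the 6 channels, so it has no value here.

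Of 8 mitotic kinesins, 7 were measured on the iTreg array, with log2 ratios between 0.12 and 1.96. Kif20a, which works in cytokinesis, had signals of 3357, 4480 and 1262 in Th2, Th9 and iTreg cells, against 359.7, 375.5 and 324.6 in naive cells, and log2 ratios of 3.22 ± 0.39, 3.58 ± 0.41 and 1.96 ± 0.30. Kif11, which pushes the spindle poles apart, had signals of 1397, 1389 and 557.6, against 151.6, 160.6 and 153.1, and ratios of 3.20 ± 0.43, 3.11 ± 0.42 and 1.86 ± 0.33. Kif22 and Kif4, motors on chromosome arms, stood at 2.89, 3.09 and 1.66 and at 2.73, 2.86 and 1.02. These 4 were at least 2-fold higher in every culture, apart from Kif4 in iTreg cells with median centring. Kif2c, which dismantles microtubule ends, was read by 2 probes of similar brightness. The slightly brighter one, used for the counts, was at 2.92 ± 0.47 in Th9 cells and had its naive channel at background on the Th2 and iTreg arrays. The other, measured on all 3 arrays, gave log2 ratios of 2.21 in Th2, 2.57 in Th9 and 0.91 in iTreg cells.

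The other kinesins were under 2-fold in iTreg cells although at least 2-fold higher in both Th2 and Th9 cells. Kif18a, which limits chromosome movements, had signals of 560.3, 690.4 and 246.5 in Th2, Th9 and iTreg cells, against 142.8, 142.2 and 141.3 in naive cells, with log2 ratios of 1.97 ± 0.34, 2.28 ± 0.37 and 0.80 ± 0.26. Kif20b, a kinesin of late cytokinesis, had signals of 1857, 2031 and 651.3, against 499.1, 491.9 and 503.3, with ratios of 1.90 ± 0.28, 2.05 ± 0.29 and 0.37 ± 0.21. In Kif23, the motor of the centralspindlin complex, the iTreg channel nearly met the naive ones. Its signals were 1172, 1411 and 424.4 in the cultures and 404.1, 402.8 and 391.4 in naive cells. The log2 ratios of Kif23 were 1.54 ± 0.26 in Th2, 1.81 ± 0.27 in Th9 and 0.12 ± 0.21 in iTreg cells, the last within the error of no difference and -0.14 with median centring.

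The 5 spindle genes were at least 2-fold higher in every culture. Nusap1, which bundles microtubules around chromosomes, had signals of 4195, 5315 and 1348 in Th2, Th9 and iTreg cells, against 322.1, 309.5 and 309.7 in naive cells, with log2 ratios of 3.70 ± 0.43, 4.10 ± 0.46 and 2.12 ± 0.30. Tpx2, the activator of Aurora A on the spindle, had signals of 3962, 4718 and 976.4, against 280, 271.5 and 256.2, with ratios of 3.82 ± 0.45, 4.12 ± 0.48 and 1.93 ± 0.31. In Th9 cells they were 17.2-fold and 17.4-fold higher by these probes. A second, dim Tpx2 probe, measured on the Th9 array alone, gave a log2 ratio of 0.74 there, so the Tpx2 probes disagree by more than 2-fold. Spag5, Tacc3 and Prc1, which stabilise kinetochore fibres and the central spindle, ranged between 2.71 and 3.39 in Th2, 2.85 and 3.65 in Th9, and 1.31 and 1.84 in iTreg cells.

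Among genes for chromosome condensation and structure, Top2a and Cdca2 led. Top2a, the topoisomerase that untangles sister chromatids, had signals of 6640, 6667 and 1453 in Th2, Th9 and iTreg cells, against 514.8, 491.7 and 441.4 in naive cells, with log2 ratios of 3.69 ± 0.43, 3.76 ± 0.42 and 1.72 ± 0.27. Cdca2, which brings a phosphatase to chromatin at mitotic exit, had signals of 2036, 2426 and 496.6, against 193.2, 185.4 and 169.2, with ratios of 3.40 ± 0.44, 3.71 ± 0.47 and 1.55 ± 0.29. Mki67, the Ki-67 protein that coats mitotic chromosomes and the usual marker of proliferation, was at 2.92, 3.30 and 1.72. It stood near the median of the members on all 3 arrays.

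The condensin subunits differed widely in their ratios. Ncaph and Ncapd2, subunits of condensin I, were at 2.91, 3.13 and 1.497 and at 2.52, 2.61 and 1.16. Ncapg, also a subunit, was at background in naive cells, at least 1.48-fold higher in Th2 and 1.60-fold higher in Th9 cells, and not well above background in iTreg cells. Smc2, a core ATPase of condensin, had signals of 3199, 3659 and 1337 in the cultures, against 1250, 1376 and 1292 in naive cells. Its log2 ratios were 1.36 ± 0.24, 1.41 ± 0.24 and 0.05 ± 0.20, so the iTreg channel lay within the error of naive cells, and at -0.23 with median centring. Smc4, its partner, had signals of 13450 in Th2, 19710 in Th9 and 27210 in iTreg cells, against 22280, 21060 and 21190 in naive cells. Its log2 ratio was -0.73 ± 0.22 in Th2, -0.10 ± 0.20 in Th9 and 0.36 ± 0.21 in iTreg cells, and with median centring 0.36, 0.80 and 0.57. Between iTreg and Th2 cells Smc4 ran opposite to the other 48 members under both scalings, at 1.09 ± 0.30 with loess and 0.21 with median centring. Between iTreg and Th9 cells it was 0.46 ± 0.29 with loess and -0.23 with median centring, and its direction against naive cells also depended on the scaling in Th2 and Th9 cells. It was read by 1 probe, whose cross-hybridisation was not tested.

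Cytokinesis was represented by Racgap1 and Ect2, which together switch on RhoA at the division plane. Racgap1 had signals of 7526, 10450 and 3756 in Th2, Th9 and iTreg cells, against 920.3, 943 and 854.5 in naive cells, and log2 ratios of 3.03 ± 0.36, 3.47 ± 0.40 and 2.14 ± 0.29. Ect2 had signals of 2842, 3503 and 790.3, against 333.3, 313 and 286.5, and ratios of 3.09 ± 0.38, 3.49 ± 0.42 and 1.46 ± 0.26. Both were at least 2-fold higher in all 3 cultures. Racgap1 is the partner of Kif23 in centralspindlin, and in iTreg cells it was 4.40-fold higher where Kif23 was 1.08-fold higher.

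**Figure D3:**
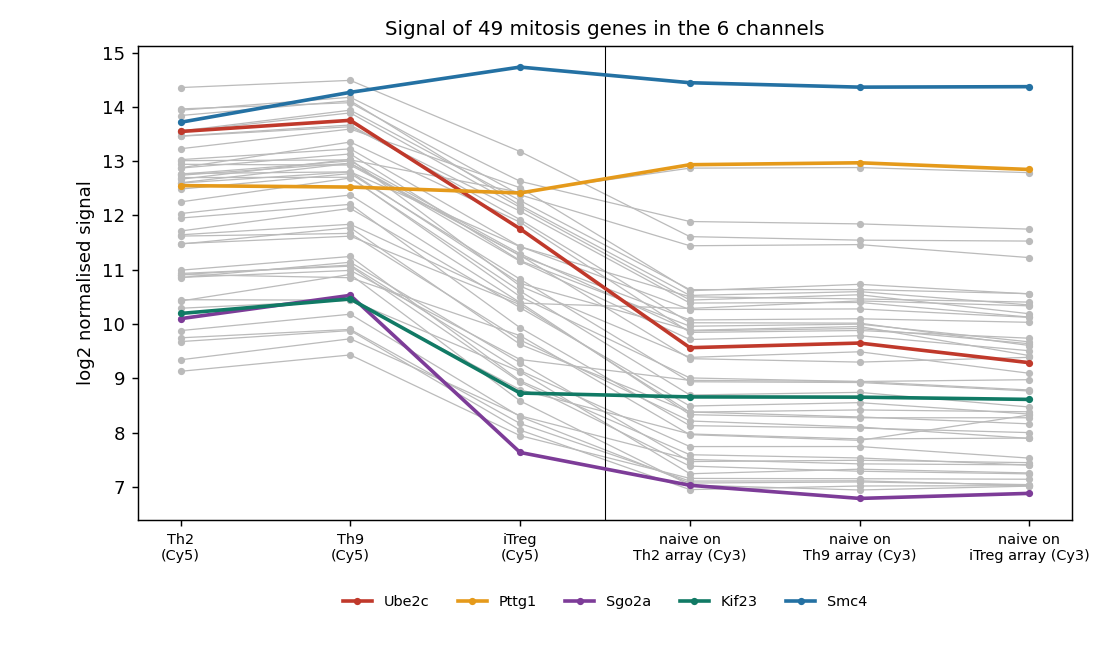
Log2 normalised signal of the 49 mitosis genes measured on all 3 arrays, 1 line per gene, in the 3 culture channels (Cy5) and the naive channel (Cy3) of each array. Lines compare channels within a gene, since levels of different probes are not comparable. Ube2c, Sgo2a and Kif23 show the drop to the iTreg and naive channels, Pttg1 is somewhat higher in the naive channels, and Smc4 is highest in iTreg cells.

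Naive cells gave similar normalised signals over the 3 arrays. The scaling gives the arrays a common distribution of average intensity, so part of this likeness is built in. The SD of a member's log2 naive signal over the arrays was 0.01 to 0.29, with a median of 0.07, against a median of 0.05 for all genes. Prc1 had the widest spread. In 37 of the 49 members the naive signal was lowest on the iTreg array, where the culture signal was also lowest for most members. How many of all genes did so was not counted. The sources used here do not give whether these channels share an RNA extract.

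Th9 and Th2 cells were close in their mitosis genes, as they were in most measured genes. No member of the 49 differed by 2-fold. Of all measured genes 1.28% were at least 2-fold higher in Th9 cells and 1.35% at least 2-fold lower. The 0 of 49 is near these shares and so is not particular to the members. The median log2 difference of the members was 0.22, against a median of -0.02 and an upper quartile of 0.14 for all measured genes. Members ranged from -0.09 for Kif11 to 0.67 for Sgo2a. Under loess 47 of the 49 were above 0, against 4912 of 10452 measured genes. This is not kept under median centring, where 25 were above 0, against 1920 of 10452 measured genes, and the members' median was 0.01. In that scaling all genes had a median of -0.23, so the members stood 0.24 above all genes in either. Foxm1 (0.47) and Smc4 (0.63) were the 2 members whose difference exceeded its combined scanner error, a count not made for all genes.

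The iTreg culture stood below Th2 in nearly every member. Of 49, 43 were at least 2-fold lower in iTreg cells, against 6.68% of all measured genes, and 1, Smc4, was at least 2-fold higher, against 6.86%. The median log2 difference was -1.42 under loess. It was -1.57 between the normalised Cy5 signals, which also rest on loess and so are no separate check of it, and -2.05 under median centring. Relative to all genes the last is -1.46. Both culture RNAs carried Cy5, so a difference between cultures cancels a dye effect of the gene only as far as it was equal on both arrays. Whether it was equal was not tested. In 47 of the 49 the iTreg value was below Th2 by more than the combined error, a count not made for all genes. By sign alone 48 of the 49 were below Th2 under loess, against 5271 of 10533 measured genes. Against Th9, 45 of 49 were at least 2-fold lower in iTreg cells, where 6.29% of all measured genes were, none was higher by 2-fold, against 6.8% of all, and the median difference was -1.64. The iTreg ratio was the lowest of the 3 cultures in 47 of 49 members, the exceptions being Smc4 and Pttg1, and this too was not counted over all genes. Both comparisons use the same iTreg array, so they are not separate observations of that culture.

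Every role took part in the iTreg gap. The median difference between iTreg and Th2 was -1.67 to -1.38 for the 3 measured mitotic kinases, with a median of -1.55, and -1.55 also for the spindle genes. It was -1.49 for chromatid separation, -1.46 for kinetochores, -1.43 for the checkpoint, -1.36 for chromosome structure, -1.34 for kinesins, -1.26 for cytokinesis, -1.14 for entry and -1.12 for the passenger complex. This order holds for loess only. With median centring the passenger complex was at -2.02, kinesins and entry at -1.95 and cytokinesis at -1.93. Differences between roles were not tested, and the error of a single gene's difference was 0.29 to 0.72. Sgo2a had the widest gap, -2.32 ± 0.56 against Th2 and -2.99 ± 0.62 against Th9, followed by Top2a at -1.97 ± 0.51 and Tpx2 at -1.89 ± 0.55 against Th2. Cenpa (-0.66 ± 0.43), Racgap1 (-0.90 ± 0.46) and Foxm1 (-0.93 ± 0.40) had the narrowest gaps among genes that were at least 2-fold higher in Th2 cells. Bub3, at -0.50 ± 0.29, was also lower in iTreg cells, and Pttg1, at -0.05 ± 0.30, did not differ beyond its error.

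**Figure D4:**
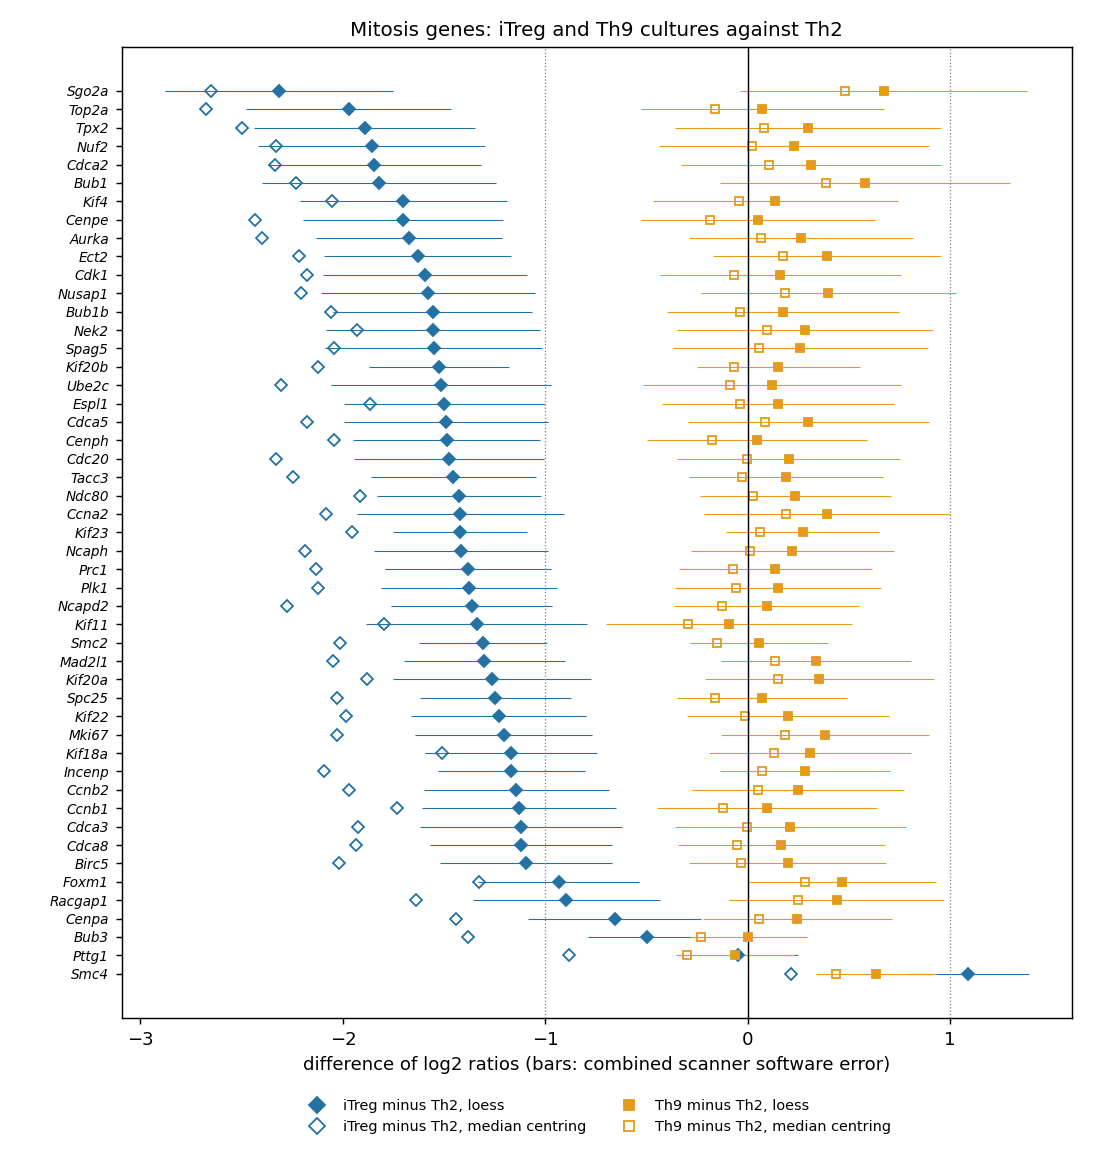
Difference of log2 ratios for 49 mitosis genes, iTreg minus Th2 (diamonds) and Th9 minus Th2 (squares), filled for loess with the combined scanner software error and open for median centring. Dotted lines mark 2-fold. All iTreg points but Smc4 lie below 0, from -0.05 to -2.32 under loess, and all Th9 points lie within 0.67 of 0.

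A further 75 mitosis genes outside the list had smaller values in the same order of cultures. Of 64 measured in Th2 cells 49 were at least 2-fold higher, of 66 in Th9 cells 50 were, and of 65 in iTreg cells 24 were, with medians of 1.85, 1.98 and 0.82. Cenpp, of the inner kinetochore, stood at 3.43, 3.98 and 2.58, and Cks2, a subunit of cyclin-dependent kinases, at 3.40, 3.85 and 2.58. At the other end Mis12, which links inner and outer kinetochore, was at -0.93, -0.96 and -0.85, and Zw10, which recruits dynein there, at -0.83, -0.81 and -1.02. In iTreg cells 32 of 62 were at least 2-fold lower than in Th2 cells, with a median difference of -1.03, and with median centring 53 of 62 were, with a median of -1.56. Of all measured genes 6.68% were under loess. With median centring 2828 of 10533 were, with a median of -0.59, so part of the rise is a shift of all genes. S phase genes had 20, 20 and 8 of 29 at least 2-fold higher, medians of 1.47, 1.51 and 0.58, and 15 of 29 were at least 2-fold lower in iTreg than in Th2 cells. With median centring these counts were 23, 23 and 4 higher, and 27 lower in iTreg than in Th2 cells. Of all measured genes 25.4%, 21.5% and 8.17% were higher in that scaling, and the same 2828 of 10533 lower. Gins2, of the replicative helicase, reached 3.13, 3.21 and 1.52, and Uhrf1, which maintains DNA methylation, 2.91, 2.99 and 1.27. The licensing genes Mcm2 and Cdt1 were lowest, at -0.10, -0.02 and -1.30 and at -0.39, -0.40 and -1.33, and with median centring both turned above 0 in Th2 and Th9 cells (0.30 and 0.16 for Mcm2, 0.43 and 0.18 for Cdt1).

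Core subunits of the machines that the members act on, with some enzymes and regulators, were mostly under 2-fold in either direction, as were most measured genes. Of all measured genes 14.8%, 15.5% and 10.2% were at least 2-fold higher in Th2, Th9 and iTreg cells. At least 2-fold lower were 14.5%, 15.6% and 8.14%. With median centring 25.4%, 21.5% and 8.17% were higher, and 810 of 10940, 1230 of 10775 and 1328 of 11110 lower. The list of the anaphase-promoting complex holds its subunits and Ube2s, a ubiquitin-conjugating enzyme that works with it. Of these genes, 0 of 14 were at least 2-fold higher in Th2, 1 of 14 in Th9 and 0 of 15 in iTreg cells. The medians were 0.18, 0.23 and 0.05. Cdc16 (0.99, 0.82 and 0.56) and Anapc15 (0.98, 1.103 and 0.25) were highest, and Anapc11 (-0.80, -1.06 and -0.83) and Anapc5 (-0.63, -0.39 and -0.93) lowest. With median centring the medians were 0.89, 0.59 and -0.06, the iTreg one turning sign, 6, 3 and 0 were at least 2-fold higher, and Anapc5 turned to 0.58 and 0.57 in Th2 and Th9 cells. Cohesin and its regulators had medians of -0.39, -0.42 and -0.29 under loess and of 0.12, 0.08 and -0.53 under median centring, so their direction in Th2 and Th9 cells depends on the scaling. Under loess 0 of 11, 1 of 12 and 0 of 12 were at least 2-fold higher and 3, 3 and 0 at least 2-fold lower, and under median centring 3, 2 and 0 were higher and 2, 3 and 1 lower. Esco2, an acetyltransferase that acts in S phase, had its naive channel at background on the Th2 array and was at least 2.05 higher in Th2, at 2.40 in Th9 and at 0.96 in iTreg cells. Of genes measured on all 3 arrays, Rad21, the subunit that separase cuts, was at 0.81, 0.67 and 0.06 and Wapl, which releases cohesin, at 0.71, 0.53 and 0.12, the last turning to -0.10 with median centring, where Rad21 reached 1.87 and 1.46 in Th2 and Th9 cells and Wapl 1.24 in Th2 cells. Esco1, also an acetyltransferase of cohesin, was at -1.59, -1.76 and -0.86 and Stag1, a cohesin subunit, at -1.43, -1.28 and -0.68.

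Of 12 genes of the DREAM and MuvB complexes and their pocket protein and E2F relatives, 3, 2 and 2 were at least 2-fold higher in Th2, Th9 and iTreg cells, with medians of 0.19, 0.16 and -0.15 (0.68, 0.43 and -0.34 with median centring). Of all measured genes 14.8%, 15.5% and 10.2% were, and with median centring the counts were 4, 3 and 0. Mybl2, which encodes B-Myb, the partner of MuvB in cycling cells, stood at 2.35, 2.16 and 1.098, and Rb1, the retinoblastoma protein, at 1.30, 1.68 and 1.07. Rbl1, the pocket protein p107, was lowest at -0.54, -0.91 and -1.35, and Lin52, a subunit of MuvB, was at -0.42, -0.19 and -0.24. In promoters, CHR letters occurred in 35 of 60 of the further mitosis genes (58.3%), in 5 of 24 S phase genes (20.8%), in 3 of 14 genes of the anaphase-promoting complex (21.4%) and in 2 of 7 cohesin genes. E2F letters occurred in 13 of 24 S phase genes (54.2%), 4 of 7 cohesin genes (57.1%), 17 of 60 further mitosis genes (28.3%) and 0 of 14 genes of the anaphase-promoting complex.

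**Figure D5:**
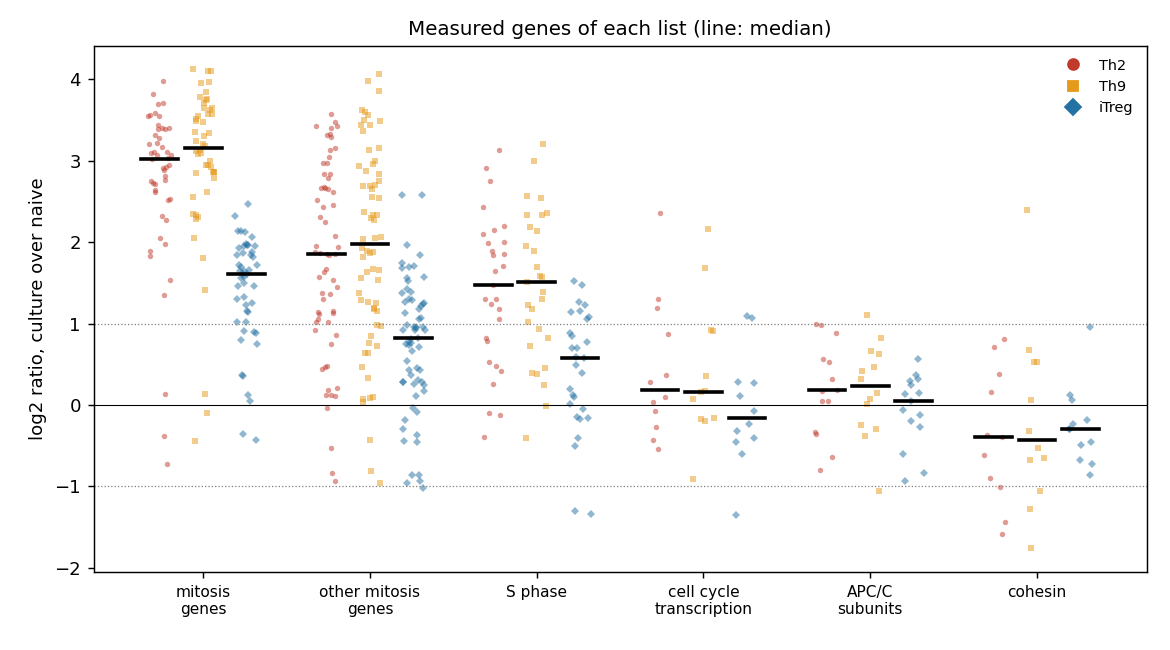
Log2 ratio, culture over naive, of every measured gene in the mitosis list and 5 other cell cycle lists, with Th2, Th9 and iTreg side by side and a bar at each median. Dotted lines mark 2-fold. Medians of the mitosis genes are 3.02, 3.16 and 1.61, those of the anaphase-promoting complex (APC/C) 0.18, 0.23 and 0.05.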

How the data were processed

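Naive (Cy3) and Th2, Th9 or iTreg RNA (Cy5), 0.2 µg labelled each, were compared on 1 array per culture, on 1 slide, so array position and culture cannot be told apart. Per the file headers, the deposited scanner files hold spot and background intensity from Agilent Feature Extraction 11.0.1.1 (9.3.2.1 per the submitters' processing notes), log10 ratios and their log10 errors, and p-values of the software's error model, which were not used. The deposited series table held log2 ratios of Cy5 over Cy3, equal to the scanner ratio plus a median of 0.056, 0.021 and 0.037, with column medians of 0.138, 0.259 and 0.283. Its further centring is unknown.

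Median intensities were corrected by normexp (offset 50) and normalised by loess within arrays (limma 3.58.1, R 4.3.3). Control and outlier spots were left out, and spots of a probe were averaged. "Normalised signal" is the linear channel value after loess and Aquantile scaling. Probes were matched by RefSeq accession to GRCm38.p6 symbols (26055 of 39429). Since the array design used mm9, its positions were set aside. The brightest probe stood for a gene. Where naive cells were at background, the fold is at least that of the culture over the higher of the lowest signal above background on that array and the probe's own naive signal. Between cultures, log2 ratios were subtracted and errors combined as the root of summed squares. Calls are by size, at least 2-fold, with no test, since 1 array a group leaves no residual degrees of freedom. Members, lists and motifs were chosen with earlier results of these data known. In each role the 2 members with the highest mean ratio and every member under 2-fold on an array are given in full, and of the other lists the 2 highest and 2 lowest. The remaining members are given as ratios, bounds or ranges. The normalisation was tested on simulated data in which few probes changed. That test does not cover changes as broad as those seen here. Tables were made in pandas 2.3.3 and numpy 2.4.6 (Python 3.11.15) and figures in matplotlib 3.10.9. The alternatives were median centring, the scanner log ratio, an offset of 16, plain subtraction and no background filter. Others were the mean over probes, the series table, the normalised Cy5 signals between cultures, which also rest on loess, and leaving out an array. One marker of the planned B cell list is not reported here.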

Additional observations from a re-analysis of the deposited data

Results flagged for a closer look

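Smc4, which encodes a core ATPase of condensin, had a log2 ratio to naive of 0.361 in iTreg cells and of -0.729 in Th2 cells. It drew attention because the 2 cultures lay on opposite sides of naive cells, each by more than its scanner error (0.207 and 0.215), while nearly all other mitosis genes lay above naive cells in both. With 1 array a culture the difference was not tested. With median centring both values were above 0, at 0.574 in iTreg and 0.362 in Th2 cells.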

How the results depend on the processing

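Each of the 13 counts and medians of the mitosis genes was recomputed under 7 to 10 alternatives, 100 values in all. Only a median can change direction, and 0 of the medians did. The median for Th9 against Th2 came nearest to it, at 0.012 with median centring against 0.221 reported, with a median scanner error of 0.543. Counts stayed within 1.5 times the value reported, and medians mostly moved by less than a member's median scanner error. The 6 exceptions were larger in size. The median for Th2 against naive was 3.425 with median centring, 3.419 with the scanner log ratio and 3.475 with the series table, against 3.024 reported. The median for Th9 against naive was 3.575 with the scanner log ratio and 3.596 with the series table, against 3.155. The median for iTreg against Th2 was -2.05 with median centring, against -1.419. The count for iTreg against naive ran between 33 and 42, around 38. Leaving out 1 array moved the count of members at least 2-fold higher on all remaining arrays between 38 and 46, the higher value without the iTreg array. Weak signal limits Plk4, Aurkb, Ttk, Ncapg and Cenpf to bounds or to no value on at least 1 array, as it does the brighter of 2 Kif2c probes. No paired analysis was possible because each group has 1 array and the result comes from no test.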
